A study of Homo sapiens with 12 samples.

Results

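The phosphoinositide 3-kinase (PI3K), AKT and mTOR pathway was followed through 8 of its component genes, which are AKT1, AKT2, PIK3CA, PIK3CB, PIK3R1, PIK3R3, MTOR and RICTOR. They were chosen by name, with earlier results of these data known. All 8 were found among the 58735 gene symbols of the count tables and were among the 17780 genes that passed the filter on low counts. The cells were MDA-MB-468, a human triple-negative breast cancer line, and poly(A) RNA was sequenced in 12 libraries, 3 in each of 4 groups. PIK3R1 and PIK3R3, which encode regulatory subunits of PI3K, fell more than 2-fold in cells given an EZH2 and an AKT inhibitor together. The other 6 genes differed from DMSO by at most 0.50 on the log2 scale in any treatment.

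In this pathway a receptor kinase at the membrane recruits a PI3K made of a regulatory and a catalytic subunit, and the catalytic subunit phosphorylates a membrane lipid to phosphatidylinositol trisphosphate. That lipid brings the kinase AKT to the membrane, where PDPK1 and mTOR complex 2, which is built on RICTOR, phosphorylate and activate it. AKT in turn restrains the TSC complex and so releases RHEB, the activator of mTOR complex 1, which drives translation and holds back autophagy. AKT also excludes FOXO transcription factors from the nucleus, and several receptor and adaptor genes of the pathway are known FOXO targets. MDA-MB-468 is known as a line with many copies of EGFR.

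In the first group the cells received 5 µM tazemetostat, an inhibitor of the Polycomb methyltransferase EZH2, with 5 µM ipatasertib, an inhibitor of the AKT kinases (the combination), in medium with 2% serum, and RNA was taken at 24 h. Tazemetostat is recorded for these cells from day -5. Of the other groups, 1 received 10 nM docetaxel, a microtubule-stabilising taxane, for 24 h, 1 received it for 8 h, and 1 received DMSO. All groups are described as wild type. Tazemetostat alone and ipatasertib alone were not analysed here. The labels do not give the hours, plate or serum of the DMSO cells or the serum of the docetaxel cells, so drug, serum and plate format cannot be told apart in these comparisons. Whether the 3 libraries of a group came from separate cultures is not stated, and the p-values therefore speak only of library-to-library spread, part or all of which may be technical.

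Total counts lay between 29820617 and 45807059 per library. No pair of libraries within a group was alike within counting error (lowest chi-square over its degrees of freedom 3.25). CPM denotes counts scaled by library total and TMM factor, as edgeR's cpm gives them. The basal marker EGFR averaged 4895 ± 365 CPM in the combination, 2644 ± 131 CPM at 24 h and 3096 ± 409 CPM at 8 h of docetaxel, and 3829.9 ± 254 CPM in DMSO (SD, n = 3 each). The basal keratin KRT5 averaged 936 ± 46.9 CPM in the combination, 1624 ± 55.8 CPM at 24 h, 2849.8 ± 61.0 CPM at 8 h and 1624 ± 32.6 CPM in DMSO. The 4 basal markers thus did not move alike. The 5 epithelial markers were all present and differed in direction too. EPCAM averaged 317 ± 16.4 CPM in the combination, 405 ± 12.7 CPM at 24 h, 459.6 ± 7.29 CPM at 8 h and 332 ± 3.22 CPM in DMSO. KRT18 averaged 1266 ± 113 CPM in the combination and 919.9 ± 21.6 CPM in DMSO. The hormone receptor ESR1 averaged at most 1.86 CPM in any group, and PGR was near 0. Summed markers of other cell types were low but not level. The 4 endothelial genes came to 38.8 to 40.0 CPM in the combination, 13.5 to 14.9 CPM at 24 h and 11.8 to 17.7 CPM at 8 h of docetaxel, and 21.7 to 24.2 CPM in DMSO. Most of this sum was KDR, which averaged 36.4 CPM in the combination and 22.2 CPM in DMSO, while PECAM1 and VWF averaged at most 0.350 CPM in any group. The 6 fibroblast genes came to 27.3 to 28.1 CPM in the combination, 17.7 to 20.1 CPM at 24 h, 12.98 to 14.3 CPM at 8 h and 22.3 to 24.6 CPM in DMSO. Most of it was COL1A1, which averaged 18.0 CPM in the combination and 21.6 CPM in DMSO, whereas PDGFRA averaged 4.98 and 1.73 CPM. The 5 immune genes came to 38.4 to 45.0 CPM in the combination, 34.0 to 36.0 CPM at 24 h, 25.8 to 27.4 CPM at 8 h and 54.1 to 56.8 CPM in DMSO. Within that sum CD14 averaged 26.9 CPM in the combination and 52.4 CPM in DMSO. CSF1R averaged 15.4 CPM in the combination and 2.73 CPM in DMSO. DCN and LUM were at 0 in all libraries outside the combination, where they averaged 0.299 and 4.17 CPM. Mitochondrial genes held 8.49% ± 0.799 of the counts in the combination, 6.38% ± 1.28 at 24 h and 8.55% ± 0.409 at 8 h of docetaxel, and 4.21% ± 0.244 in DMSO (SD, n = 3 each). The part of the cell type markers and of the mitochondrial share in the results that follow was not tested.

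In GENCODE on GRCh38 the regulatory genes lie apart, with PIK3R1 (ENSG00000145675.14) at chromosome 5, 68215720 to 68301821, plus strand, and PIK3R3 (ENSG00000117461.14) at chromosome 1, 46040140 to 46133036, minus strand. The catalytic genes share a chromosome, with PIK3CA (ENSG00000121879.4) at chromosome 3, 179148114 to 179240093, plus strand, and PIK3CB (ENSG00000051382.8) at chromosome 3, 138652699 to 138834938, minus strand. Of the kinases downstream the annotation places AKT1 (ENSG00000142208.16) at chromosome 14, 104769349 to 104795751, minus strand, and AKT2 (ENSG00000105221.16) at chromosome 19, 40230317 to 40285536, minus strand. It places MTOR (ENSG00000198793.12) at chromosome 1, 11106535 to 11262507, minus strand, and RICTOR (ENSG00000164327.12) at chromosome 5, 38937919 to 39074408, minus strand.

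Transcripts of both regulatory subunits among the 8 genes fell furthest in the combination. The wider list of PI3K regulatory subunits held 4 tested genes, of which 3 were lower there and 1 was higher. Of all tested genes 31.4% were called in each direction. The gene called higher was not among the 8 and rose by 1.18 on the log2 scale. PIK3R3 encodes a regulatory subunit that binds phosphotyrosine through SH2 domains. In libraries A, B and C its level was 58.4, 59.3 and 56.5 CPM in the combination, 105, 108 and 104 CPM at 24 h of docetaxel, 88.3, 87.1 and 91.4 CPM at 8 h, and 132, 133 and 131 CPM in DMSO. The 4 groups did not overlap, with the combination lowest and DMSO highest. PIK3R3 fell by 2.27-fold in the combination (log2 fold change -1.18 ± 0.05 SE, edgeR quasi-likelihood test, Benjamini-Hochberg adjusted p = 6.82e-16). It fell by 0.32 ± 0.04 on the log2 scale at 24 h of docetaxel (edgeR adjusted p = 5.09e-06) and by 0.57 ± 0.05 at 8 h (adjusted p = 1.07e-09).

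PIK3R1 encodes the regulatory subunit that stabilises the catalytic subunit and holds it inactive until a receptor is engaged, and it has shorter isoforms from internal starts. PIK3R1 stood at 17.8, 17.0 and 18.2 CPM in libraries A, B and C of the combination, 32.8, 35.1 and 35.2 CPM at 24 h of docetaxel, 25.8, 26.9 and 25.9 CPM at 8 h, and 37.0, 38.1 and 38.6 CPM in DMSO. Again the 4 groups were separate and stood in the order of PIK3R3. PIK3R1 fell by 2.14-fold in the combination (log2 fold change -1.10 ± 0.06, edgeR adjusted p = 2.23e-13), and by 0.53 ± 0.06 on the log2 scale at 8 h of docetaxel (edgeR adjusted p = 8.23e-08). At 24 h of docetaxel the log2 fold change was -0.14 ± 0.06 (edgeR adjusted p = 0.0432), and this call was lost in 9 of 13 alternatives, among them each of the 6 that left out 1 library (-0.16 to -0.11, adjusted p from 0.0527 to 0.175). In bulk RNA, fewer cells with a transcript and less of it per cell cannot be told apart. The sizes of the falls in the combination exceeded those of 88.0% of all tested genes for PIK3R3 and of 86.6% for PIK3R1.

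The promoter windows of these genes are shown because PIK3R1 and PIK3R3 both fell in the combination and at 8 h of docetaxel. RefSeq windows (GRCh38.p14) run from 250 bases before to 50 bases after an annotated start, and counts per gene do not tell which start was in use. All 8 genes matched, with 19 windows. A FOXO core motif, GTAAACA on either strand, lies in 3.42% of the 35116 windows and in a window of 4.19% of the 27305 genes, and an E-box, CACGTG, which reads alike on both strands, lies in 7.26% of windows and 8.77% of genes. Of the 8 genes only PIK3CA had a window with the FOXO core, and none had the E-box. The 6 windows of PIK3R3 ran from 34% to 64% GC and the 4 of PIK3R1 from 40% to 80% GC. Shown are 1 of the 6 for PIK3R3 (chr1:46132580-46132879, minus strand, 23 CpG), 1 of the 4 for PIK3R1 (chr5:68215506-68215805, plus strand, 42 CpG), the single one for PIK3CA (chr3:179148107-179148406, plus strand) and 1 of the 2 for PIK3IP1 (chr22:31292439-31292738, minus strand), a gene described with the inhibitors. The FOXO core is in capitals as it stands on the strand shown.
PIK3R3: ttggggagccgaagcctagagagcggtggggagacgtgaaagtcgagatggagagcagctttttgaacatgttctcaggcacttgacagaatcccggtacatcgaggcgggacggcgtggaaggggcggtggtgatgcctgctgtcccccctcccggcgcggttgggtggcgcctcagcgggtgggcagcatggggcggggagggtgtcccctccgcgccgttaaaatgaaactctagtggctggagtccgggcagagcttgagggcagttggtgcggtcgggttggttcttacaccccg
PIK3R1: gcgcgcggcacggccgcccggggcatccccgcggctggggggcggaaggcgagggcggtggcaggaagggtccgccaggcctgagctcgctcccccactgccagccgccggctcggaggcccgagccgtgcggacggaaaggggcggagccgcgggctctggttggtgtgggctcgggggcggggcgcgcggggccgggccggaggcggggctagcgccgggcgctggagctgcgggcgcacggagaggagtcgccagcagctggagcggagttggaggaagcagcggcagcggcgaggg
PIK3CA: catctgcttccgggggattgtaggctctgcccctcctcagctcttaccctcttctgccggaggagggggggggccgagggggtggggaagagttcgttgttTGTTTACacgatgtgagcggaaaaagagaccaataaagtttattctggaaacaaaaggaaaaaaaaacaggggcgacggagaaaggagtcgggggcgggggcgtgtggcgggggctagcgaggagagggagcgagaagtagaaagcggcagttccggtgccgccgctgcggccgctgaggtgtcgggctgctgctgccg
PIK3IP1: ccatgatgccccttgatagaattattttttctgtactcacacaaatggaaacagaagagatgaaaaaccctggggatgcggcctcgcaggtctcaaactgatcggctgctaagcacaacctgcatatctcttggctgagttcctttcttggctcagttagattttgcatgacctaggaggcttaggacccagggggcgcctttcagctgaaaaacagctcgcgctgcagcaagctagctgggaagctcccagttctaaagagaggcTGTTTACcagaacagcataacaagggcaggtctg
The capitals lie at position -149 relative to the start in PIK3CA and at position 16 in PIK3IP1. The other PIK3IP1 window (chr22:31292485-31292784, minus strand), which is not shown, has no FOXO core. PIK3R1 has 4 and PIK3R3 has 6 of the 19 windows. A match is a string of letters and not a measured binding site, and windows without one say nothing of the factor.

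The catalytic subunits moved less. PIK3CA encodes the alpha isoform, the one most often mutated in breast cancer. PIK3CA stood at 19.1, 21.4 and 18.6 CPM in libraries A, B and C of the combination, 16.4, 14.7 and 14.6 CPM at 24 h of docetaxel, 13.95, 16.8 and 16.7 CPM at 8 h, and 17.4, 20.6 and 19.1 CPM in DMSO. The combination overlapped DMSO, and both docetaxel groups lay below it. PIK3CA differed by 0.06 ± 0.08 in the combination (95% interval -0.14 to 0.25, edgeR adjusted p = 0.584). It fell at 24 h of docetaxel (log2 fold change -0.32 ± 0.09, edgeR adjusted p = 0.00443) and at 8 h (-0.26 ± 0.09, adjusted p = 0.0143). The call at 8 h was lost without DMSO library B (-0.18, adjusted p = 0.125), without DMSO library C (-0.24, adjusted p = 0.0573) or without library A of the 8 h group (-0.18, adjusted p = 0.107). Of the exon bases of PIK3CA 35.8% are shared with KCNMB3 on the opposite strand, which was measured at 2.05 to 2.57 CPM and was not called in any comparison with DMSO. The strand setting of the counting is not given in the sources used here.

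PIK3CB encodes the beta isoform, which is widely expressed. Libraries A, B and C held 47.2, 47.6 and 47.1 CPM of PIK3CB in the combination, 44.0, 43.0 and 39.0 CPM at 24 h of docetaxel, 38.3, 45.5 and 43.4 CPM at 8 h, and 56.2, 60.0 and 56.2 CPM in DMSO. All 9 treated libraries lay below the 3 DMSO libraries. PIK3CB fell by 0.28 ± 0.06 on the log2 scale in the combination (edgeR adjusted p = 0.000412), by 0.45 ± 0.06 at 24 h (adjusted p = 3.88e-06) and by 0.44 ± 0.06 at 8 h of docetaxel (adjusted p = 4.17e-06). A further catalytic gene, PIK3CD, which encodes the delta isoform of leukocytes, was low and rose in the combination, with 3.78 ± 0.228 CPM there and 2.37 ± 0.103 CPM in DMSO (SD, n = 3 each, log2 fold change 0.67 ± 0.17, edgeR adjusted p = 0.00165).

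**Figure D1:**
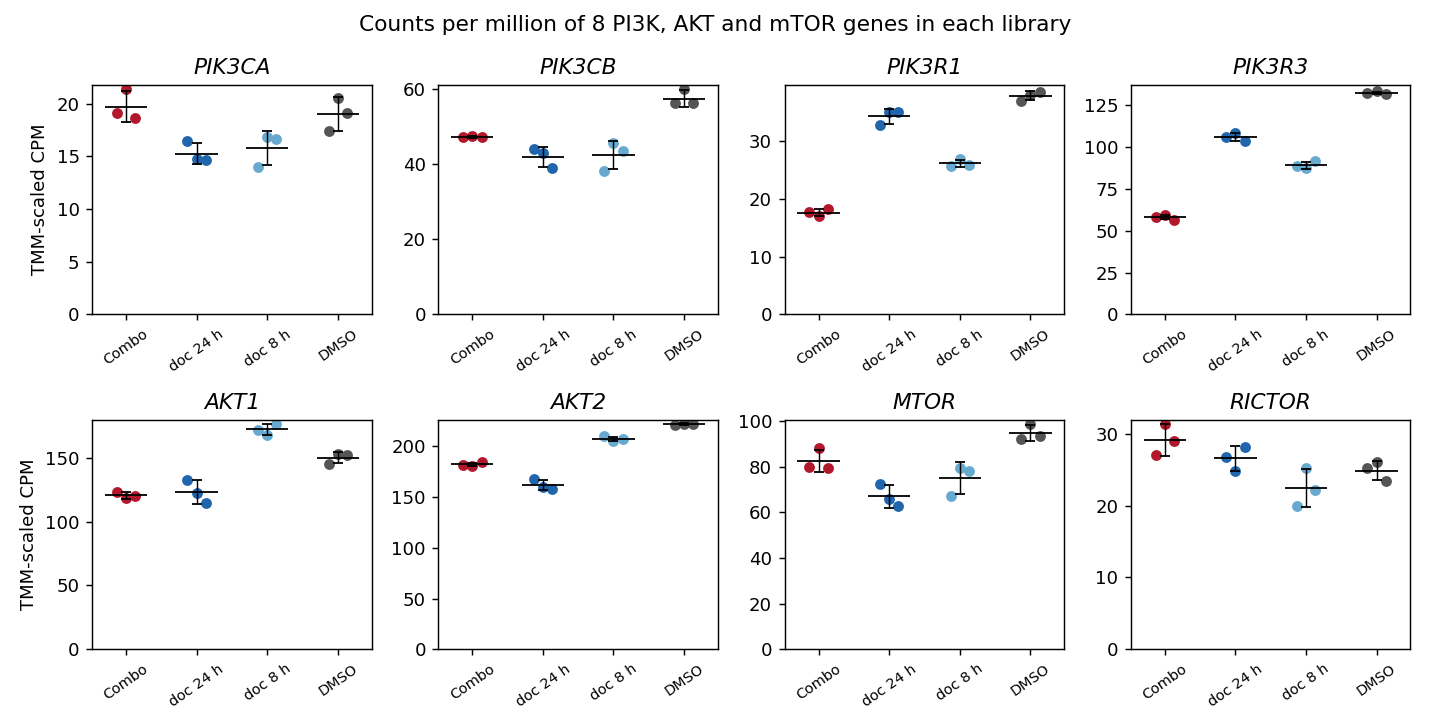
TMM-scaled CPM (y axis from 0) of the 8 genes in each library of the combination (Combo), docetaxel at 24 h, docetaxel at 8 h and DMSO, where points are libraries, long bars are means and error bars are SD (n = 3). PIK3R1 and PIK3R3 lie at 17.0 to 18.2 and 56.5 to 59.3 CPM in the combination, below every other library, and AKT1 at 8 h lies at 168 to 177 CPM, above every other library.

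AKT1 and AKT2 fell modestly in the combination and at 24 h of docetaxel. AKT1 encodes the most widely expressed AKT kinase, and AKT2 the isoform linked to insulin action. AKT1 stood at 123, 118 and 120.2 CPM in libraries A, B and C of the combination, 133, 123 and 115 CPM at 24 h of docetaxel, 172, 168 and 177 CPM at 8 h, and 145, 153 and 153 CPM in DMSO. At 8 h all 3 libraries lay above DMSO, and at 24 h and in the combination all lay below it. AKT1 fell by 0.32 ± 0.05 in the combination on the log2 scale (edgeR adjusted p = 1.32e-05) and by 0.29 ± 0.05 at 24 h (adjusted p = 0.000115), and at 8 h it rose by 0.20 ± 0.05 (adjusted p = 0.00299). When library totals replaced the TMM factors, the median log2 fold change of all genes at 8 h was -0.18, against -0.02 with TMM. AKT1 at 8 h was then no longer called (0.042, edgeR adjusted p = 0.507). A change of scaling moves all genes together, so the place of AKT1 against that median cannot decide between the scalings.

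Libraries A, B and C held 182, 181 and 184 CPM of AKT2 in the combination, 168, 160.0 and 158 CPM at 24 h of docetaxel, 209.9, 206 and 207 CPM at 8 h, and 221, 223 and 223 CPM in DMSO. The groups were separate from each other, and DMSO was highest. AKT2 fell by 0.28 ± 0.04 on the log2 scale in the combination (edgeR adjusted p = 5.69e-06) and by 0.46 ± 0.04 at 24 h (adjusted p = 3.96e-08). At 8 h it differed by -0.10 ± 0.04 (95% interval -0.20 to 0.00, edgeR adjusted p = 0.0707), and with library totals the fall was called (-0.25, adjusted p = 3.44e-05). These are transcript levels, and AKT phosphorylation was not measured in these files.

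MTOR, the kinase of both mTOR complexes, fell in every treatment. MTOR stood at 79.7, 88.2 and 79.5 CPM in libraries A, B and C of the combination, 72.4, 65.7 and 62.8 CPM at 24 h of docetaxel, 66.9, 79.6 and 78.2 CPM at 8 h, and 92.0, 98.7 and 93.6 CPM in DMSO. Every treated library lay below every DMSO library. The fall was 0.20 ± 0.07 on the log2 scale in the combination (edgeR adjusted p = 0.0103), 0.50 ± 0.07 at 24 h (adjusted p = 2.25e-06) and 0.34 ± 0.07 at 8 h (adjusted p = 0.000164). The call in the combination was lost without DMSO library B (-0.17, adjusted p = 0.0521). RPTOR, the partner of MTOR in complex 1, fell in the combination (-0.28 ± 0.05, adjusted p = 6.30e-05) and at 24 h (-0.44 ± 0.05, adjusted p = 7.51e-07), and at 8 h it gave -0.12 ± 0.05 (adjusted p = 0.0772), called only with library totals (-0.27, adjusted p = 0.000275) and without library C of that group (-0.16, adjusted p = 0.0372).

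RICTOR, the scaffold of complex 2, was the only one of the 8 genes called higher in the combination, where 31.4% of all tested genes were called higher. Libraries A, B and C held 27.0, 31.4 and 28.97 CPM of RICTOR in the combination, 26.7, 24.8 and 28.2 CPM at 24 h of docetaxel, 19.9, 25.2 and 22.1 CPM at 8 h, and 25.2, 26.0 and 23.4 CPM in DMSO. The combination lay just above DMSO, and both docetaxel groups overlapped it. RICTOR rose by 0.23 ± 0.08 in the combination (edgeR adjusted p = 0.0158), a call lost without DMSO library C (0.19, adjusted p = 0.0747), without library B of the combination (0.17, adjusted p = 0.0976) or with library totals (0.19, adjusted p = 0.0571). At 24 h of docetaxel it differed by 0.10 ± 0.08 (95% interval -0.08 to 0.28, edgeR adjusted p = 0.336) and at 8 h by -0.15 ± 0.08 (95% interval -0.33 to 0.04, adjusted p = 0.140). The fall at 8 h was called without library B of that group (-0.24, adjusted p = 0.0174) and with library totals (-0.30, adjusted p = 0.00625).

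**Figure D2:**
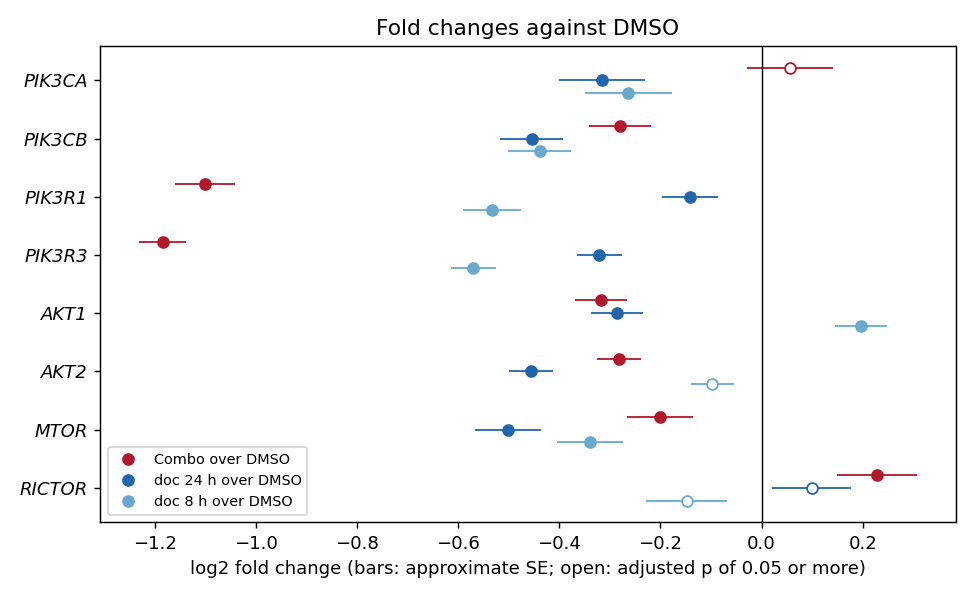
Log2 fold changes over DMSO (x axis) of the 8 genes in the combination (Combo), docetaxel at 24 h and docetaxel at 8 h, with approximate SE as bars and open symbols where the edgeR adjusted p was 0.05 or more. PIK3R1 at -1.10 and PIK3R3 at -1.18 in the combination stand apart from the other points, which lie between -0.57 and 0.23.

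Counted together, 1 of the 8 genes was higher and 6 were lower in the combination than in DMSO (edgeR adjusted p under 0.05), where 31.4% of all 17780 tested genes were higher, 31.4% were lower and 62.8% were called in either direction. Their median log2 fold change was -0.28, beside 0.01 over all genes. At 24 h of docetaxel 0 were higher and 7 were lower, where 20.2% of all genes were higher, 22.7% were lower and 42.9% were called, with medians of -0.32 for the 8 and 0.01 for all genes. At 8 h 1 was higher and 5 were lower, where 22.5% of all genes were higher, 24.8% were lower and 47.3% were called, with medians of -0.30 and -0.02. At 8 h the 3994 higher and 4415 lower genes of the TMM scaling became 2288 higher and 6784 lower with library totals, a share of higher calls of 25.2% in place of 47.5%. The 3 comparisons share the 3 DMSO libraries. Because the 8 genes were chosen with earlier results of these data known, their counts beside all genes are descriptive and do not test the set.

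The docetaxel time points differed from each other for 5 of the 8 genes, with 3 higher and 2 lower at 24 h than at 8 h, where 16.6% of all genes were higher, 18.3% were lower and 34.9% were called. PIK3R1 (log2 fold change 0.39 ± 0.06, edgeR adjusted p = 1.12e-05) and PIK3R3 (0.25 ± 0.05, adjusted p = 0.000143) were higher at 24 h than at 8 h, and so nearer to DMSO. AKT1 (-0.48 ± 0.05, edgeR adjusted p = 1.60e-07) and AKT2 (-0.36 ± 0.04, adjusted p = 9.03e-07) were lower at 24 h. RICTOR was higher at 24 h (0.25 ± 0.08, edgeR adjusted p = 0.0196), with groups that overlapped, and the call was lost without library A of the 8 h group (0.16, adjusted p = 0.126), without its library C (0.24, adjusted p = 0.0597) or without library C of the 24 h group (0.19, adjusted p = 0.112). PIK3CB (-0.02, 95% interval -0.16 to 0.13) and PIK3CA (-0.05, -0.25 to 0.15) were not called, and with library totals their values had the opposite sign (0.12 and 0.079). MTOR gave -0.16 ± 0.07 (edgeR adjusted p = 0.0603), and its fall was called in 6 of 13 alternatives, with -0.24 (adjusted p = 0.00378) without library A of the 8 h group, -0.22 (adjusted p = 0.0187) without library A of the 24 h group and -0.16 (adjusted p = 0.0489) with the library letter as a block. With library totals the split of all genes between these time points changed to 5392 higher and 1655 lower, a share of higher calls of 76.5% in place of 47.5%, and the same 5 genes kept their calls and directions.

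The combination was also set against docetaxel, which differs from it in drug, days of exposure and possibly serum. Against 24 h of docetaxel 4 of the 8 genes were higher and 2 were lower, where 32.1% of all genes were higher, 31.7% were lower and 63.8% were called. PIK3R1 (-0.96 ± 0.06, edgeR adjusted p = 2.56e-12) and PIK3R3 (-0.86 ± 0.05, adjusted p = 1.98e-13) were lower in the combination, and PIK3CA (0.37 ± 0.09, adjusted p = 0.000632), MTOR (0.30 ± 0.07, adjusted p = 0.000360), AKT2 (0.17 ± 0.04, adjusted p = 0.00145) and PIK3CB (0.17 ± 0.06, adjusted p = 0.0187) were higher. The call of PIK3CB was lost without library C of the 24 h group (0.13, adjusted p = 0.0915). AKT1 differed by -0.03 (95% interval -0.15 to 0.09) and RICTOR by 0.13 (-0.05 to 0.31).

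Against 8 h of docetaxel 3 were higher and 4 were lower in the combination, where 34.3% of all genes were higher, 32.1% were lower and 66.4% were called, and the share of higher calls was 51.7% with TMM and 61.9% with library totals. PIK3R3 (-0.61 ± 0.05, edgeR adjusted p = 5.47e-11), PIK3R1 (-0.57 ± 0.06, adjusted p = 1.99e-08), AKT1 (-0.51 ± 0.05, adjusted p = 7.93e-09) and AKT2 (-0.19 ± 0.04, adjusted p = 0.000671) were lower in the combination. RICTOR (0.38 ± 0.08, edgeR adjusted p = 0.000271), PIK3CA (0.32 ± 0.09, adjusted p = 0.00243) and PIK3CB (0.16 ± 0.06, adjusted p = 0.0312) were higher, and MTOR differed by 0.14 (95% interval -0.01 to 0.29). The call of AKT2 was lost with library totals (-0.07, adjusted p = 0.166), which also called MTOR higher (0.26, adjusted p = 0.00312), as did leaving out library B of the 8 h group (0.18, adjusted p = 0.0292). That of PIK3CB was lost in 6 of 13 alternatives, among them leaving out library A, B or C of the combination (0.15 to 0.16, adjusted p from 0.0542 to 0.0666) or library A of the 8 h group (0.08, adjusted p = 0.246).

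Ratios of genes within a library do not depend on the scaling between libraries, and exact two-sided permutation tests over 3 against 3 libraries cannot give a p below 0.1. The size of a ratio depends on the gene lengths used, here union exon lengths. For a ratio of 2 genes the log2 difference between groups does not. The summed levels per kilobase of PIK3R1 and PIK3R3 over those of PIK3CA, PIK3CB and PIK3CD, a ratio added after the values were seen, were 1.11, 1.07 and 1.09 in libraries A, B and C of the combination, 2.23, 2.45 and 2.51 at 24 h of docetaxel, 2.16, 1.80 and 1.91 at 8 h, and 2.26, 2.11 and 2.23 in DMSO. The combination stood alone near an equal level of these regulatory and catalytic transcripts by union exon length. The geometric mean was 1.09 there against 2.20 in DMSO (exact permutation p = 0.1). The numerator holds the 2 genes already seen to fall, so this ratio restates their falls and is no separate support. Other tested genes of the list of regulatory subunits were left out of it. PIK3R2, which encodes a further regulatory subunit, could not enter this ratio. It had at most 11 counts in a library and was not tested, and 87.2% of its exon bases lie on the same strand in AC007192.1, which was itself near 0, so its level is uncertain. PIK3R3 shares 17.4% of its exon bases with AL358075.4 on the same strand, which was listed at 0. The ratio of PIK3R3 to PIK3R1 was 4.77 in the combination, 4.48 after 24 h and 4.93 after 8 h of docetaxel, and 5.06 in DMSO as geometric means. The combination and the 8 h group overlapped DMSO (exact permutation p = 0.2 and 0.5), and the 24 h group lay below it (exact permutation p = 0.1).

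The ratio of PIK3CB to PIK3CA was 2.98, 2.69 and 3.06 in libraries A, B and C of the combination, 3.24, 3.53 and 3.22 at 24 h of docetaxel, 3.32, 3.27 and 3.15 at 8 h, and 3.91, 3.53 and 3.56 in DMSO. The combination and the 8 h group lay below DMSO without overlap (exact permutation p = 0.1 each), and the 24 h group overlapped it (exact permutation p = 0.2). The ratio of AKT2 to AKT1 was 1.12 in the combination, 0.975 after 24 h and 0.894 after 8 h of docetaxel, and 1.10 in DMSO as geometric means. Both docetaxel groups lay below DMSO without overlap (exact permutation p = 0.1 each), and the combination overlapped DMSO (exact permutation p = 0.2). With the longest transcript as length, library A of DMSO held 41.6 CPM per kb of AKT2 and 17.3 of AKT1. RICTOR stood at 0.316 of RPTOR in the combination, 0.322 at 24 h, 0.216 at 8 h and 0.222 in DMSO as geometric means. The combination and the 24 h group lay above DMSO in every library (exact permutation p = 0.1 each), and the 8 h group overlapped DMSO (exact permutation p = 0.8). The ratio of RICTOR to MTOR was 0.316 in the combination, 0.355 at 24 h, 0.267 at 8 h and 0.235 in DMSO, and each treatment lay above DMSO without overlap (exact permutation p = 0.1 each).

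**Figure D3:**
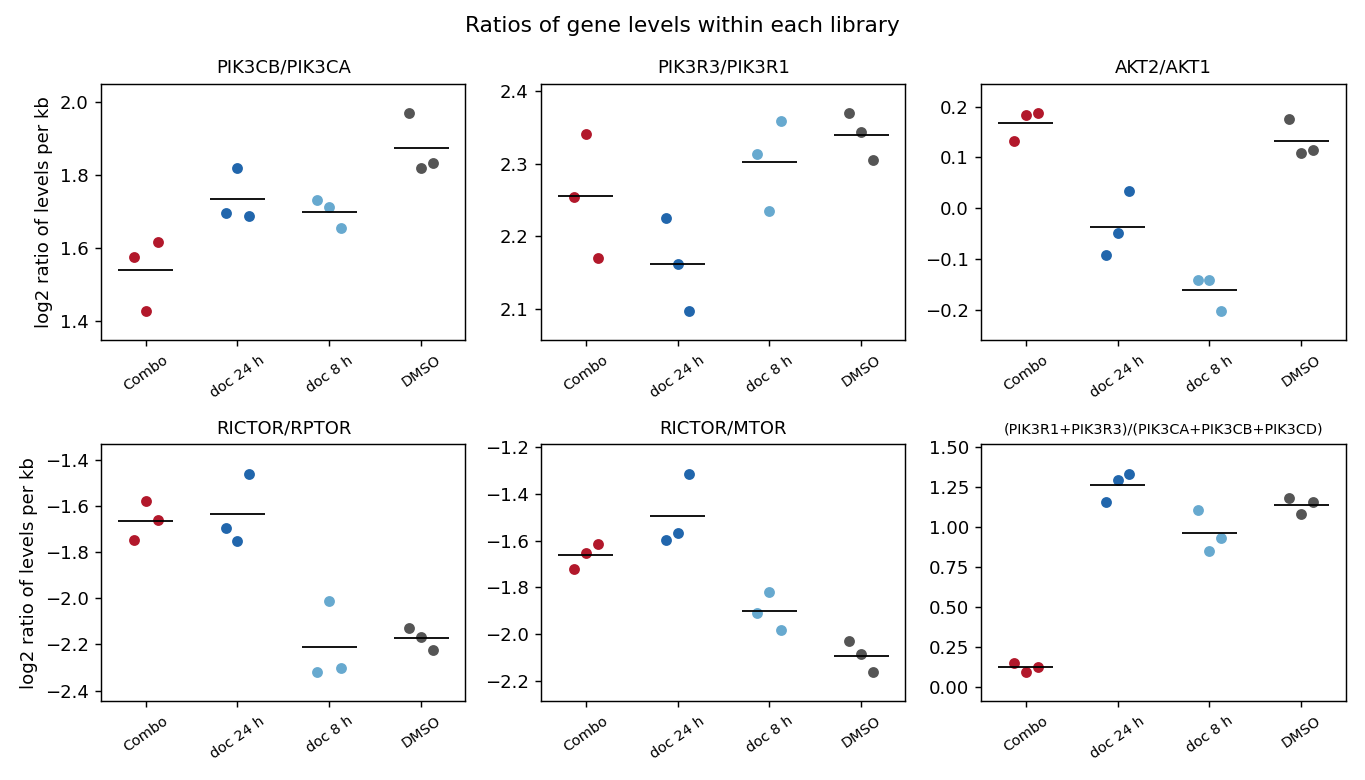
Log2 ratios of levels per kilobase (y axis, a separate scale in each panel) for 5 gene pairs and for summed PIK3R1 and PIK3R3 over summed PIK3CA, PIK3CB and PIK3CD. Groups are the combination (Combo), docetaxel at 24 h, docetaxel at 8 h and DMSO, where points are libraries and bars are group means. The summed ratio lies at 0.10 to 0.15 in the combination and at 0.85 to 1.33 in all other libraries.

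The order of the 8 genes by level per kilobase of exon also changed. In the combination it ran from AKT2 (12.1 ± 0.107 CPM per kb) through AKT1 (10.8 ± 0.221), PIK3R3 (7.83 ± 0.188), MTOR (6.80 ± 0.413), PIK3CB (6.02 ± 0.0350), RICTOR (2.15 ± 0.162) and PIK3CA (2.08 ± 0.157) to PIK3R1 (1.64 ± 0.0582), and only RICTOR and PIK3CA overlapped among neighbours. PIK3R3 thus stood below AKT1 and AKT2 there, and PIK3R1 stood last. At 24 h of docetaxel PIK3R3 led (14.3 ± 0.302), followed by AKT1 and AKT2, which overlapped (11.1 ± 0.818 and 10.8 ± 0.348), MTOR and PIK3CB, which overlapped (5.53 ± 0.405 and 5.35 ± 0.337), PIK3R1 (3.19 ± 0.126), RICTOR (1.96 ± 0.128) and PIK3CA (1.61 ± 0.105). At 8 h AKT1 led (15.4 ± 0.391), followed by AKT2 (13.8 ± 0.145), PIK3R3 (libraries between 11.8 and 12.3), MTOR and PIK3CB, which overlapped (6.18 ± 0.574 and 5.40 ± 0.474), PIK3R1 (2.43 ± 0.0558), and PIK3CA and RICTOR, which overlapped (1.67 ± 0.170 and 1.66 ± 0.197). In DMSO it ran from PIK3R3 (17.8 ± 0.115 CPM per kb) through AKT2 (14.8 ± 0.0739), AKT1 (13.5 ± 0.415), MTOR (7.82 ± 0.292), PIK3CB (7.32 ± 0.281), PIK3R1 (3.52 ± 0.0747) and PIK3CA (2.00 ± 0.170) to RICTOR (1.83 ± 0.0982, SD, n = 3 each). MTOR overlapped PIK3CB, and PIK3CA overlapped RICTOR. These orders rest on union exon lengths. With the longest transcript as length, AKT2 led in every library of all 4 groups. It stood at 41.6 CPM per kb in library A of DMSO, beside 23.5 for PIK3R3 and 17.3 for AKT1. In library A at 8 h it stood at 39.6, beside 20.5 for AKT1. PIK3R1 then lay above PIK3CA in every library of the combination (2.54 and 2.10 in library A).

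The wider pathway was taken from 10 lists with 80 genes, the 8 included, of which 75 were tested. These lists too were chosen with earlier results of these data known, so their counts beside all genes are descriptive only. In the combination 28 of them were higher, 30 were lower and 17 were not called (77.3% called, beside 62.8% of all tested genes), with a median log2 fold change of 0.04, beside 0.01 over all genes. The largest rise was that of PIK3IP1, a membrane protein that binds and inhibits the catalytic subunit. Libraries A, B and C held 73.7, 65.7 and 72.7 CPM of PIK3IP1 in the combination, 6.94, 7.80 and 7.67 CPM at 24 h of docetaxel, 3.47, 3.80 and 3.85 CPM at 8 h, and 7.72, 7.77 and 7.18 CPM in DMSO. PIK3IP1 rose by 3.22 ± 0.07 on the log2 scale in the combination (edgeR adjusted p = 4.04e-20) and fell by 1.03 ± 0.09 at 8 h of docetaxel (adjusted p = 9.32e-09), while at 24 h it gave -0.02 ± 0.08 (adjusted p = 0.906). SGK1, a kinase related to AKT that mTOR complex 2 activates, held 182, 200.2 and 212 CPM in libraries A, B and C of the combination and 41.8, 38.0 and 37.2 CPM in DMSO (log2 fold change 2.34 ± 0.07, adjusted p = 1.62e-18).

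Among the lipid phosphatases and inhibitors, 4 of the 10 tested genes were higher and 5 were lower in the combination, where 31.4% of all genes were called in each direction. PHLPP2, a phosphatase of AKT, fell in the combination (-0.79 ± 0.09, edgeR adjusted p = 3.36e-08). INPP4B, a lipid phosphatase named here after its values were seen, averaged 28.4 ± 1.77 CPM in the combination and 11.1 ± 0.582 CPM in DMSO (1.36 ± 0.08, adjusted p = 1.29e-12). TRIB3, which binds AKT, fell at 8 h of docetaxel (-0.80 ± 0.05, edgeR adjusted p = 5.03e-11), and 7 of the 10 genes were lower and 1 was higher there, beside 24.8% and 22.5% of all genes. At 24 h 4 were lower and 0 were higher, beside 22.7% and 20.2% of all genes.

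Among the 12 genes of the RAG GTPases, Ragulator and the folliculin complex, which place mTOR complex 1 on the lysosome in response to amino acids, 9 were higher and 0 were lower in the combination, where 31.4% of all genes were higher and 31.4% were lower, with a median of 0.38, beside 0.01 over all genes. RRAGD led, with 73.1, 69.6 and 70.7 CPM in libraries A, B and C of the combination and 22.9, 22.04 and 20.6 CPM in DMSO (log2 fold change 1.70 ± 0.06, edgeR adjusted p = 2.30e-16). FNIP2, a partner of folliculin, rose by 1.37 ± 0.09 (adjusted p = 3.73e-12). In docetaxel the list was mixed, with 6 higher and 4 lower at 24 h (20.2% and 22.7% of all genes) and 4 higher and 3 lower at 8 h (22.5% and 24.8% of all genes). LAMTOR5 rose at 24 h (0.45 ± 0.06, adjusted p = 2.03e-06) and at 8 h (0.47 ± 0.06, adjusted p = 8.64e-07), and so did LAMTOR3 at 24 h (0.48 ± 0.07, adjusted p = 8.38e-06). FNIP2 fell at 24 h (-0.39 ± 0.09, edgeR adjusted p = 0.00139) and at 8 h (-0.95 ± 0.10, adjusted p = 4.11e-08).

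Of the 9 subunits of the mTOR complexes, 2 were higher and 5 were lower in the combination, 1 was higher and 3 were lower at 24 h of docetaxel, and 4 were higher and 3 were lower at 8 h. The share called was 77.8%, 44.4% and 77.8% in these comparisons, beside 62.8%, 42.9% and 47.3% of all genes, so that the 24 h share was near that of all genes. PRR5L fell in the combination (-0.89 ± 0.07, edgeR adjusted p = 2.57e-10), whereas its paralogue PRR5, also a partner of RICTOR, rose by 0.42 ± 0.08 at 24 h (adjusted p = 0.000108) and by 0.73 ± 0.08 at 8 h of docetaxel (adjusted p = 4.56e-08). Of the exon bases of PRR5 17.8% are shared with PRR5-ARHGAP8. DEPTOR, an inhibitor of both complexes, averaged 12.8 ± 0.421 CPM in the combination, 7.34 ± 0.424 CPM at 8 h of docetaxel and 15.5 ± 0.568 CPM in DMSO (SD, n = 3 each). It fell in both treatments (-0.28 ± 0.08, adjusted p = 0.00558, and -1.08 ± 0.09, adjusted p = 1.30e-09) and gave -0.07 ± 0.08 at 24 h (adjusted p = 0.500). TSC2, which switches RHEB off, fell in the combination (-0.16 ± 0.05, adjusted p = 0.00715) and at 24 h (-0.19 ± 0.05, adjusted p = 0.00396). RHEB rose by 0.45 ± 0.05 at 24 h (adjusted p = 4.87e-07) and by 0.46 ± 0.05 at 8 h of docetaxel (adjusted p = 1.88e-07).

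Of the 10 genes downstream of AKT and mTOR complex 1, 4 were higher and 5 were lower in the combination, where 31.4% of all genes were called in each direction. The cap-binding factor EIF4E fell (-0.65 ± 0.07, edgeR adjusted p = 2.03e-08) together with its repressor EIF4EBP2 (-0.62 ± 0.05, adjusted p = 6.13e-10). EIF4EBP2 also fell at 24 h of docetaxel (-0.65 ± 0.05, adjusted p = 4.72e-09). RPS6, a ribosomal protein phosphorylated downstream of complex 1, rose at 8 h (0.44 ± 0.07, adjusted p = 7.14e-06). DDIT4, a stress-induced brake on complex 1 counted with the nutrient sensors and not with these 10, fell in the combination (-0.45 ± 0.06, adjusted p = 4.92e-07) and with docetaxel both at 24 h (-0.26 ± 0.06, adjusted p = 0.000946) and at 8 h (-0.65 ± 0.06, adjusted p = 6.93e-09). Of its exon bases 41.2% lie opposite DDIT4-AS1. PIK3C2B, a class II PI3K, fell at 24 h of docetaxel (-0.34 ± 0.09, adjusted p = 0.00248). Over all 75 tested genes 13 were higher and 28 were lower at 24 h (54.7% called, beside 42.9% of all genes), and 17 were higher and 31 were lower at 8 h (64% called, beside 47.3% of all genes). The lowest point at 8 h, at -2.10 (edgeR adjusted p = 0.0222), was SGK2, an SGK1 relative named after its values were seen, whose levels of 0.0424 CPM there and 0.197 CPM in DMSO are too low for the fitted fold to be read. PIK3CG, PIK3R6, PIK3C2G and INPP5D, like PIK3R2, did not pass the filter on low counts.

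**Figure D4:**
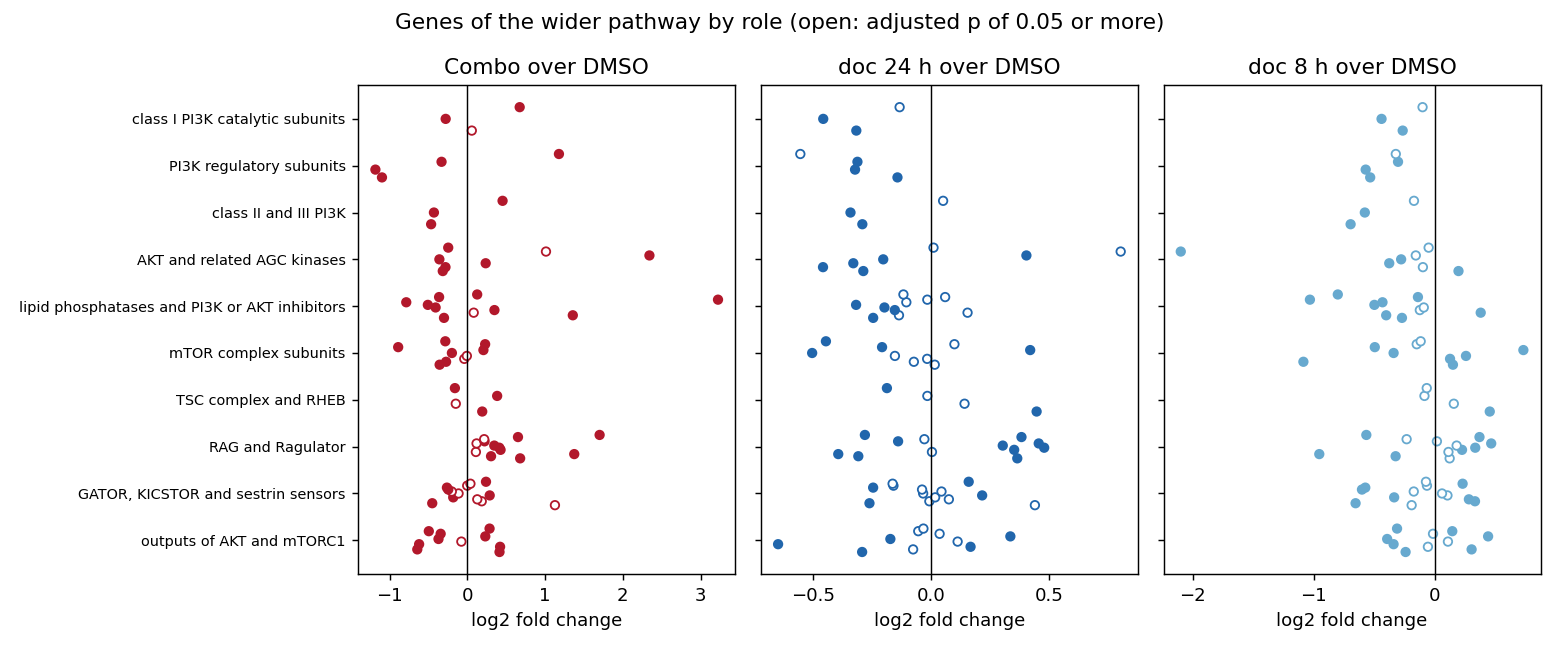
Log2 fold changes over DMSO (x axis, a separate scale in each panel) of the 75 tested pathway genes, grouped by role down the page, in the combination (Combo), docetaxel at 24 h and docetaxel at 8 h, with open symbols where the edgeR adjusted p was 0.05 or more. In the combination PIK3IP1 at 3.22 and SGK1 at 2.34 lie farthest right, and the 12 RAG and Ragulator genes lie at or above 0.11.

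Genes that followed the 8 most closely over the 12 libraries were sought among 10607 protein-coding genes with at least 5 CPM, by Pearson's r of log2 CPM. The libraries share their groups, so r mostly describes group levels. PPP2R5A (0.993) and ARHGAP40 (0.991) were closest to PIK3R1, and PLPPR2 (0.992) and STEAP4 (0.988) to PIK3R3. EFTUD2 and FOXM1 (0.982 each) were closest to AKT1, ARF3 (0.984) and MYO1C (0.981) to AKT2, and KIAA1147 (0.988) and TMEM140 (0.980) to MTOR. UTRN (0.982) and KIAA1549 (0.968) were closest to PIK3CA, FBXL17 (0.985) and PTPRF (0.983) to PIK3CB, and BACH1 (0.933) and MINDY2 (0.915) to RICTOR.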

How the data were processed

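Poly(A) RNA of MDA-MB-468 cells was measured in 12 libraries, grouped by their labels. For each library the authors deposited a table of whole-number counts by gene symbol. Per the submitters' processing notes fastp, HISAT2 2.0.5, DESeq2 and the build hg38 were used, with no roles given. What counted the reads, on which annotation and with which strand setting, is not given in the sources used here, so overlapping genes may share or lose reads. A further deposited table of the series was not used here. GENCODE on GRCh38 held 58708 of the 58735 symbols. The 27 without a match had no more than 0.204% of the counts in any library, and 1745 entries with repeated symbols were kept apart.

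A filter on low counts (filterByExpr, minimum 10) left 17780 genes. The model was fitted with edgeR 4.0.16 (R 4.3.3) to the 12 libraries together, with 1 coefficient per group, TMM scaling and 8 residual degrees of freedom. Its two-sided quasi-likelihood test gave p-values adjusted by Benjamini-Hochberg over all genes within each of 6 comparisons, with a threshold of 0.05. The common biological coefficient of variation was 5.59%. An SE is the size of the log2 fold change over the root of the F statistic. CPM were divided by the union exon length of a gene to compare genes. Other scalings, filters, fits and DESeq2 1.42.0 were tried, and the tests were checked on simulated data. Counts without molecular identifiers are not independent molecules.

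The 8 genes and the 10 pathway lists were chosen with earlier results of these data known. Other listed genes were named where they were among the 4 strongest rises or the 4 strongest falls over DMSO with a call and at least 1 CPM in the higher group, or were PIK3R2, PIK3IP1, RPTOR, DEPTOR, TSC2 or DDIT4. Further genes of this rule are not reported here. PIK3CD, INPP4B and SGK2 were added after their values were seen. For likeness the 2 genes with the highest r were taken.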

Additional observations from a re-analysis of the deposited data

Results flagged for a closer look

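Of the 8 genes 5 differed between 24 h and 8 h of docetaxel by edgeR's test of that difference, which is also the test of whether their changes from the shared DMSO libraries differ. AKT1 was lower at 24 h by a log2 fold change of -0.48, with -0.29 at 24 h and 0.20 at 8 h against DMSO. AKT2 was lower at 24 h, with -0.36, having -0.46 at 24 h and -0.10 at 8 h. PIK3R1 was higher at 24 h, with 0.39, having -0.14 at 24 h and -0.53 at 8 h. PIK3R3 was higher at 24 h, with 0.25, having -0.32 at 24 h and -0.57 at 8 h. RICTOR was higher at 24 h, with 0.25, having 0.10 at 24 h and -0.15 at 8 h, and neither of these was called. No DMSO library is labelled as collected at 8 h.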

How the results depend on the processing

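Over the 8 genes, 584 fold changes of the 6 comparisons under the alternatives stayed on their side of the threshold, 28 lost the call, 12 gained one and 0 calls changed direction, while a few values that were not called changed sign. The 252 ratio differences obtained with another length or without 1 library moved by less than their spread. This was fixed beforehand for all but the summed ratio with another length. A gene's length cancels in the difference of a ratio of 2 genes. Leaving out 1 of 3 libraries cannot shift a group mean by as much as that spread. These alternatives therefore do not test the ratios of 2 genes. With library totals in place of TMM, RICTOR in the combination gave 0.19 and left 0 of the 8 called higher, and at 8 h AKT2 gave -0.25, AKT1 0.042 and RICTOR -0.30 with 0 called higher, beside 2288 genes higher and 6784 lower. Between 24 h and 8 h it gave 5392 higher and 1655 lower, with RHEB at 0.12 in place of an uncalled -0.0097, under a shift of 0.13 in the median of all genes. For PIK3R1 at 24 h the call was lost with no filter (-0.16), a filter of 1 CPM in 3 libraries (-0.12) and DESeq2 (-0.14). Leaving out 1 library at a time, the log2 fold change ranged from 0.17 to 0.28 for RICTOR and from -0.25 to -0.17 for MTOR in the combination, with 0 to 1 of the 8 called higher, from -0.31 to -0.18 for PIK3CA and from -0.24 to -0.068 for RICTOR at 8 h, and from -0.16 to -0.11 for PIK3R1 at 24 h. The library letters did not pair the samples (correlations of same-lettered deviations -0.13 to 0.14), and of the fold changes of the 8 genes a replicate block changed 1 call, MTOR lower at 24 h than at 8 h (-0.16, edgeR adjusted p = 0.0489), which made 3 of the 8 lower there in place of 2. It moved no count of all genes by over 1.5 times. The causes of these changes were not tested. Depth was at least 468 counts for each of the 8 genes in every library, while PIK3R2 was too low to test.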

Other observations

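In 3 of 4 groups PIK3CA, PIK3CB, MTOR and RICTOR were highest in the same library. In the combination, in DMSO and at 8 h of docetaxel, library B held the highest CPM of all 4 genes. At 24 h of docetaxel library A held the highest CPM of PIK3CA, PIK3CB and MTOR and library C that of RICTOR, and the lowest library was shared by the 4 genes only at 8 h. The pattern was seen after the values were known and was not tested.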
